A study of Mus musculus with 16 samples.

Results

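The subunits of oxidative phosphorylation were followed in the mouse hippocampus as 98 genes of the 46603 gene IDs in the count table. They were chosen by name and annotation, not by their measured values. They comprise the 13 protein-coding genes of the mitochondrial genome and 85 protein-coding nuclear genes named as subunits of complexes I to V. Assembly factors and 11 pseudogenes or copies annotated as such were left out. Complex I holds 43 of the 98 genes, complex II 4, complex III 9, complex IV 23 and complex V 19. Ndufa4 and Ndufa4l2 were counted with complex IV, where the Ndufa4 protein is found. Of the 98, 96 had enough reads to be tested, namely all 13 mitochondrial and 83 of 85 nuclear genes.

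RNA came from the dissected hippocampus of C57BL/6 wild-type mice, an inbred laboratory strain. The mice received vehicle or beta-sitosterol, a sterol made by plants that resembles cholesterol, given intraperitoneally at 100 mg/kg. Tissue was taken 1 h or 6 h after the injection from 4 mice per group, so that 16 libraries of different animals were read. The labels used here give no age. The groups are vehicle 1 h (mice 2 to 5), beta-sitosterol 1 h (mice 6 to 9), vehicle 6 h (mice 11 to 14) and beta-sitosterol 6 h (mice 17 to 20). The tissue is a mixture of cell types, so that fewer cells of a type and less RNA per cell cannot be told apart. All 9 neuronal and all 8 hippocampal neuron markers examined were detected.

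Oxidative phosphorylation passes electrons from NADH and succinate along complexes I to IV of the inner mitochondrial membrane to oxygen, and complex V, the ATP synthase, uses the resulting proton gradient to make ATP. The core subunits of complexes I, III, IV and V are coded partly in the mitochondrial genome and partly in the nucleus. The mitochondrial genome is transcribed as long precursors that are cut into mRNAs. Complex II is coded wholly in the nucleus. Neurons depend heavily on this pathway to pay for ion pumping and synaptic transmission. Because the mitochondrial mRNAs of a strand share a precursor, their values are not independent of each other.

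Of the 13 mitochondrial genes, 8 were counted at high levels and 5 at far lower ones. The 5 were mt-Co2 and mt-Co3, core subunits of cytochrome c oxidase, mt-Atp6, the proton channel subunit of ATP synthase, and mt-Nd3 and mt-Nd4l, small membrane subunits of complex I. Their median counts per library were 14, 21, 216.5, 144 and 865 reads, whereas mt-Co1, the catalytic subunit of cytochrome c oxidase, had a median of 343604 reads. In each of the 5, between 98.0% and 100% of all 50-base stretches were found again in an annotated nuclear transcript. Each of the 5 has a copy in a row of 7 unprocessed pseudogenes on chromosome 1, 24611535 to 24616197 (GRCm38). These 7 pseudogenes themselves received at most 18 reads in any library. Other copies received more, among them Gm13341, a copy of mt-Co2 on chromosome 2 with 71 to 124 reads, which is above mt-Co2 itself, and Gm13340, a copy of mt-Co1 with 221 to 349 reads. The first 60 bases of each of the 5 genes and of its copy are shown because the copies are the feature that the low counts share (GENCODE M21 transcripts, GRCm38, 5′ to 3′, capitals mark bases that differ within a pair).
mt-Co2: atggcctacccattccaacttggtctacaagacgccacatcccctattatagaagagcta
Gm28661: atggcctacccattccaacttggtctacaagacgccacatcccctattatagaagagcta
mt-Co3: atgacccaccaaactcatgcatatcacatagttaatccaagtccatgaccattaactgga
Gm28437: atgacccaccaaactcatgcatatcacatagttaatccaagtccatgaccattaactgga
mt-Atp6: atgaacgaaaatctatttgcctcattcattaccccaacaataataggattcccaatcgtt
Gm10925: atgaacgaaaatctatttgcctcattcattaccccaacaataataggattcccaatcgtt
mt-Nd3: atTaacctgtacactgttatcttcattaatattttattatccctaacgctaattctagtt
Gm28438: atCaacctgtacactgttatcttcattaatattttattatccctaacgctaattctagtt
mt-Nd4l: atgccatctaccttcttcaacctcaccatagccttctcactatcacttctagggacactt
Gm10222: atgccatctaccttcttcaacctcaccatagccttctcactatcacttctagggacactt

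Over their whole aligned length, 4 of the 5 pairs were identical, and the pair of mt-Nd3 and Gm28438 differed at 1 of 345 bases. The 8 genes with high counts shared less of their sequence. In mt-Nd1, mt-Atp8, mt-Nd6 and mt-Cytb no 50-base stretch recurred in another transcript, and in mt-Nd2, mt-Nd5, mt-Co1 and mt-Nd4 the share was 8.19%, 7.61%, 51.1% and 62.2%. The treatment of reads with several matches in the authors' counting is not given in the sources used here, and its part in the low counts was not tested. The counts of the 5 genes and, in part, of mt-Co1 and mt-Nd4 are therefore uncertain as measures of transcript level. On the same strand, mt-Atp6 overlaps mt-Atp8 and mt-Nd4l overlaps mt-Nd4. The medians of mt-Atp8 and mt-Nd4 were 60056 and 106722 reads, far above those of the genes they overlap. The part of this overlap in the counts was not tested. Values for the mitochondrial set are given below for all 13 genes and for the 8 with high counts.

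**Figure D1:**
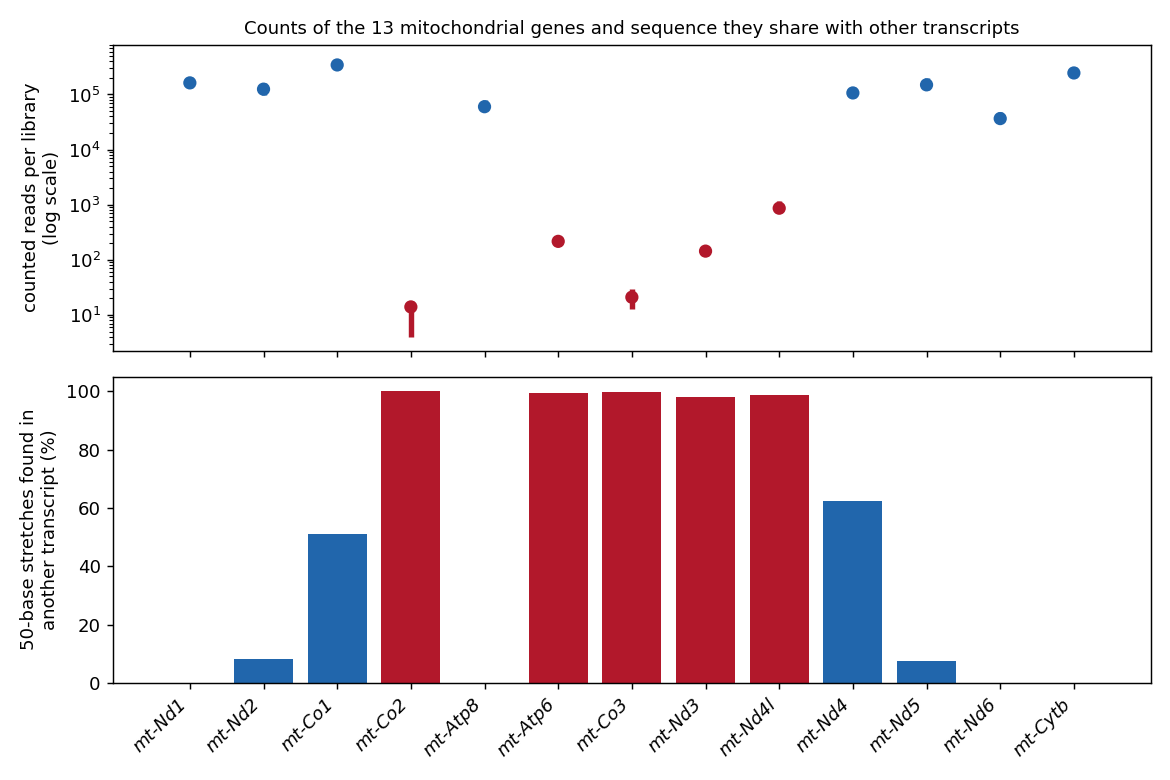
Counted reads per library of the 13 mitochondrial genes in genome order (upper panel, log scale, point: median of 16 libraries, line: lowest to highest) and the percent of their 50-base stretches found in another transcript (lower panel). The 5 genes in red share 98.0% to 100% of their stretches and have medians of 14 to 865 reads, while the 8 in blue share 0 to 62.2%.

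Per transcript length, the 8 mitochondrial mRNAs stood far above the nuclear ones. Levels are CPM, the reads of a gene scaled to the effective library size, per 1000 bases of the principal transcript, as mean ± SD over the 16 libraries. mt-Atp8, a small subunit of ATP synthase, had the highest level among the 8, 10774 ± 1446 CPM per 1000 bases. This level rests on a transcript of 204 bases, part of which overlaps mt-Atp6. mt-Nd6, the only protein-coding gene on its strand of the mitochondrial genome, had the lowest, 2647 ± 309. The strand setting of the counting is not given, so reads of the opposite strand may be in its count. The libraries were made with an mRNA kit, and its part in the levels of single mitochondrial mRNAs was not tested. The median of the 8 was 5290, and the median of the 83 nuclear subunits tested was 82.8. Summed over genes, without regard to length, the 8 mitochondrial genes held 45076 CPM and the 83 nuclear genes 9067 CPM.

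Nuclear subunits ranged widely in level within each complex. Atp5b, the catalytic beta subunit of ATP synthase, was highest at 595.6 ± 27.2 CPM per 1000 bases. Within complex V the lowest was Atp5s at 6.98 ± 0.329, a gene that is held in the set by its name prefix. In complex IV the highest was Cox4i1 at 472 ± 55.4 and the lowest tested was Cox4i2 at 1.15 ± 0.285, the ubiquitous and the lung isoform of the same regulatory subunit. Complex I ranged from Ndufb9 at 178 ± 20.1 to Ndufb2 at 7.43 ± 0.562, both accessory subunits. Complex II ranged from Sdha, the flavoprotein that oxidises succinate, at 148 ± 6.59 to the membrane anchor Sdhc at 23.5 ± 1.61. Complex III ranged from the hinge subunit Uqcrh at 202 ± 26.1 to Uqcrq at 36.7 ± 4.66. Ndufb2 and Atp5s differed by less than their spread. A low level per length in Ndufb2, Sdhc, Uqcrq or Atp5g1 rests on a long annotated principal transcript. That of Uqcrq has 1521 bases, and its median count of 1565.5 reads was above the 1229.5 reads of Uqcrb, which has 535 bases.

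**Figure D2:**
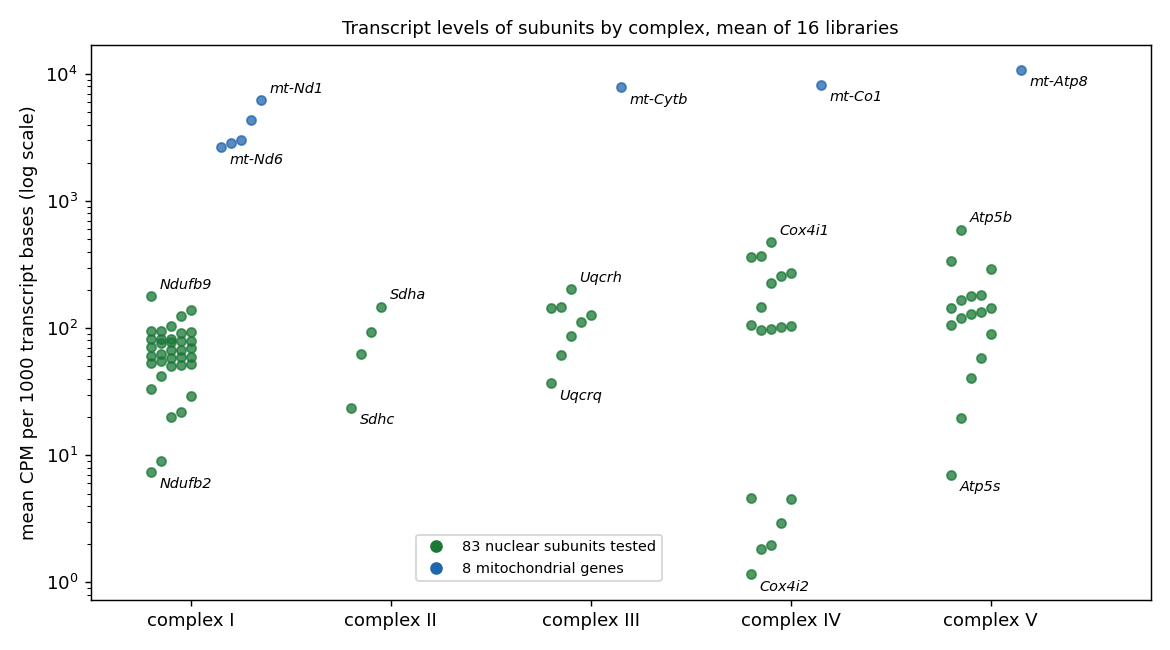
Mean level of each subunit transcript in CPM per 1000 bases (log scale) by complex, over 16 libraries, for 83 nuclear subunits (green) and the 8 well counted mitochondrial genes (blue), with the highest and lowest of each column named. All 8 mitochondrial genes lie above Atp5b, the highest nuclear subunit at 595.6, and the low group of complex IV holds the isoforms of other tissues.

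The isoform pairs separated widely. Per 1000 bases, Cox4i1 exceeded Cox4i2 by 419-fold (from 286-fold to 783-fold over the 16 libraries). Cox8a exceeded its muscle isoform Cox8b by 250-fold (86.7-fold to 1041-fold). Ndufa4 exceeded Ndufa4l2 by 140-fold (94.8-fold to 216-fold). In each of these pairs the more abundant gene was higher in every library.
Cox6a1 exceeded the heart and muscle isoform Cox6a2 by 81.1-fold (67.8-fold to 110-fold). Cox7a2 exceeded the muscle isoform Cox7a1 by 53-fold (31.1-fold to 109-fold). Cox6b1 exceeded the testis isoform Cox6b2 by 52.1-fold (27.8-fold to 79.2-fold). Cox7a2 and the related gene Cox7a2l differed by only 1.38-fold (1.29-fold to 1.5-fold). Cox8c, a testis isoform, had no read in any library, and Cox7b2 had 3 to 10 reads per library, so neither was tested.

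The 3 genes Atp5g1, Atp5g2 and Atp5g3 code for ATP synthase subunit c, the ring that turns in the membrane, with different targeting sequences. All pairs specify the same amino acid at 75 of the last 75 codons, while their bases there are 78.7% to 84.9% identical. Coding bases from this shared end are shown because the genes make the same mature protein and can still be told apart by their reads (GENCODE M21, GRCm38, capitals mark bases that differ from Atp5g3).
Atp5g3: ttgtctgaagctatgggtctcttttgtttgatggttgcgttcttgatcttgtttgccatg
Atp5g1: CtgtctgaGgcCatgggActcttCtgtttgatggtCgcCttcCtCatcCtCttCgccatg
Atp5g2: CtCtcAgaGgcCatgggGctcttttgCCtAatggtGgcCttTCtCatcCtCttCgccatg

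Per 1000 bases Atp5g3 exceeded Atp5g2 by 7.26-fold (6.67-fold to 7.73-fold) and Atp5g1 by 15-fold (13.6-fold to 15.5-fold). These ratios hardly varied between libraries, with SDs of 0.057 and 0.048 on the log2 scale. Without regard to length the levels were 209 ± 14.1 CPM for Atp5g3, 92.1 ± 7.35 for Atp5g1 and 29.5 ± 2.07 for Atp5g2, so the order of the last 2 depends on the 4715 bases annotated for Atp5g1. Of 50-base stretches in Atp5g2, 87.4% recurred in another transcript, so its count is uncertain.

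The mitochondrial set took a smaller share of the reads in beta-sitosterol mice on average, with overlap between groups at both times. In the vehicle 1 h mice 2 to 5 the 13 genes held 4.86%, 6.04%, 5.35% and 4.57% of the counted reads. In the beta-sitosterol 1 h mice 6 to 9 they held 4.44%, 4.51%, 3.97% and 4.87%. The vehicle range was thus the wider, with mouse 3 highest of all 16, and mouse 9 lay within it. In the vehicle 6 h mice 11 to 14 the shares were 5.12%, 4.33%, 3.89% and 4.44%. In the beta-sitosterol 6 h mice 17 to 20 they were 4.01%, 3.75%, 3.94% and 4.12%. The last group was the most uniform and overlapped the vehicle 6 h group only through mouse 13. Group means were 5.21% ± 0.642 and 4.45% ± 0.369 at 1 h and 4.44% ± 0.509 and 3.96% ± 0.155 at 6 h, vehicle first (SD, n = 4 each).

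The nuclear set varied less and in part through different mice. The 85 genes held 0.924%, 1.02%, 0.943% and 0.864% of the reads in vehicle 1 h mice 2 to 5. They held 0.868%, 0.871%, 0.856% and 1.02% in beta-sitosterol 1 h mice 6 to 9. Mouse 9 stood apart from its group, at the level of mouse 3. In vehicle 6 h mice 11 to 14 the shares were 0.933%, 0.92%, 0.872% and 0.911%, and in beta-sitosterol 6 h mice 17 to 20 they were 0.847%, 0.894%, 0.854% and 0.9%. The groups overlapped at both times.

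Setting both sets against each other within a library gives a ratio that no scaling changes. It does not remove a deviation that reaches the sets unequally. The median deviation from the gene mean was 0.40 for the 8 mitochondrial and 0.23 for the nuclear genes in mouse 3, but 0.14 and 0.21 in mouse 9 (log2 CPM). The log2 ratio of mitochondrial to nuclear reads was 2.40, 2.56, 2.50 and 2.41 in vehicle 1 h mice 2 to 5 and 2.35, 2.37, 2.21 and 2.25 in beta-sitosterol 1 h mice 6 to 9. The 1 h groups did not overlap, the treated mice being the lower ones. In mouse 9 the low ratio goes with its high nuclear share of 1.02%, while its mitochondrial share of 4.87% lay within the vehicle 1 h range. At 6 h the ratio was 2.46, 2.24, 2.16 and 2.28 in vehicle mice 11 to 14 and 2.24, 2.07, 2.21 and 2.20 in beta-sitosterol mice 17 to 20, so the groups overlapped. The group means were 2.47 ± 0.0804 against 2.30 ± 0.0769 at 1 h and 2.28 ± 0.126 against 2.18 ± 0.0754 at 6 h (SD, n = 4 each). The vehicle 6 h mean lay about as far below the vehicle 1 h mean as the beta-sitosterol 1 h mean did. These ratios are a description of the set, without a test.

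**Figure D3:**
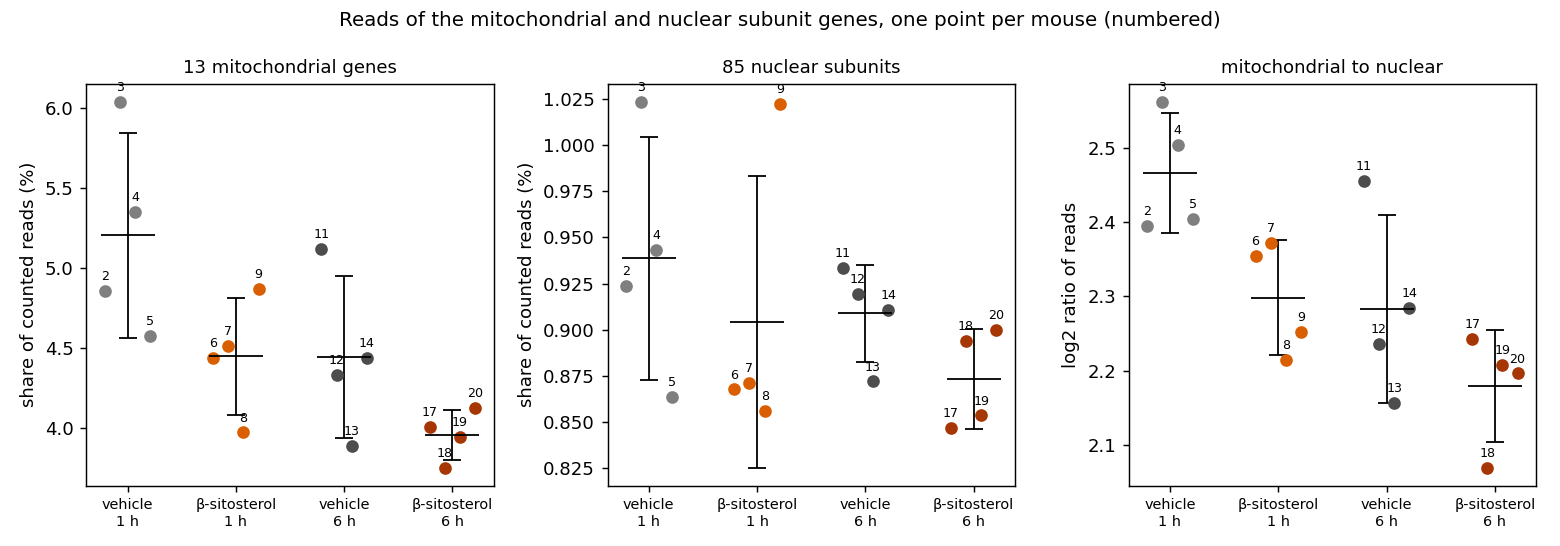
Share of counted reads (%) of the 13 mitochondrial and the 85 nuclear subunit genes and the log2 ratio of their reads, by group, with 1 point per mouse (number above the point) and bars for mean ± SD of 4 mice. Mice 3 and 9 are highest in the nuclear share at 1.02%, and in the ratio all 4 beta-sitosterol 1 h mice (2.21 to 2.37) lie below the vehicle 1 h mice (2.40 to 2.56).

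The first comparison asks how the subunit transcripts stood 1 h after beta-sitosterol. None of the 96 tested members passed edgeR at a Benjamini-Hochberg adjusted p of 0.05 over 17055 genes, where the share called among all genes was 0%. By DESeq2 and by limma no member was called either, while DESeq2 called 54 of all genes and limma none. DESeq2 gave no adjusted p for 5 mitochondrial and 20 nuclear members here, and for 5 and 34 at 6 h. At an unadjusted p under 0.05, 8 of 13 mitochondrial genes were lower and none higher, against 4.44% of all genes lower. Of the 8 mitochondrial genes with high counts, 7 were among them, and all 8 had negative log2 fold changes between -0.25 and -0.20. Of 83 nuclear subunits, 2 were lower and 1 was higher at that threshold, against 10.2% of all genes in either direction. The median log2 fold change was -0.20 for the 13 mitochondrial genes, -0.069 for the nuclear subunits and -0.0039 for all genes.

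mt-Nd4, a proton-pumping subunit of complex I (mitochondrial genome, 10167 to 11544), had the smallest p among the members at 1 h. Its level was 4059, 5063, 4750 and 4104 CPM in the vehicle mice and 3824, 3867, 3376 and 4078 CPM in the treated mice. Of the treated mice, only mouse 9 reached into the vehicle range. The means were 4494 ± 494 and 3786 ± 295 CPM, with a log2 fold change of -0.25 (SE 0.0845, edgeR adjusted p = 0.397). mt-Co1 (5328 to 6872) was at 13229, 16940, 15443 and 13441 CPM with vehicle and 12236, 12657, 11339 and 13924 CPM with beta-sitosterol. Again mouse 9 alone overlapped, and the log2 fold change was -0.24 (SE 0.0919, edgeR adjusted p = 0.439). Of the 13 mitochondrial genes, only mt-Nd4l, one of the 5 with a nuclear copy, did not overlap between groups, against 1.95% of all genes that lay wholly lower. mt-Nd3, another of the 5, was the only 1 with a positive value, 0.12 (SE 0.128). Both mitochondrial ribosomal RNAs, which are not members, had log2 fold changes of the same sign, -0.30 (SE 0.114) for mt-Rnr1 and -0.27 (SE 0.107) for mt-Rnr2 (edgeR adjusted p = 0.438 and 0.44).

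Among nuclear subunits at 1 h, the smallest p values belonged to Cox4i1, Ndufa7 and Uqcrq on the lower side and Ndufa4l2, Ndufs1 and Ndufa10 on the higher side, and none passed. Cox4i1 (chromosome 8, 120668222 to 120674207), a regulatory subunit of cytochrome c oxidase, was at 380, 461, 426 and 360 CPM with vehicle and 342, 335, 325 and 416 CPM with beta-sitosterol. Mouse 9 overlapped the vehicle mice, and the log2 fold change was -0.20 (SE 0.08, edgeR adjusted p = 0.441). Cox4i1 shares exonic bases with Emc8 on the opposite strand, so its reads may be mixed with those of Emc8. Ndufa10 (chromosome 1, 92439010 to 92473860), an accessory subunit of complex I, was at 112, 114, 114 and 112 CPM with vehicle and 116, 115, 115 and 130 CPM with beta-sitosterol. All treated mice lay above all vehicle mice, a pattern met by 3.04% of all genes, and the log2 fold change was 0.077 (SE 0.0498, edgeR adjusted p = 0.6). Ndufs1, the largest subunit of complex I, had a log2 fold change of 0.095 (SE 0.0517, edgeR adjusted p = 0.539). Ndufa4l2 was at 1.63 ± 0.23 and 2.05 ± 0.362 CPM (log2 fold change 0.33, SE 0.15, edgeR adjusted p = 0.469).

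At 6 h again none of the members was called by edgeR, DESeq2 or limma, and the share called among all genes by edgeR was 0%. DESeq2 called 123 of all genes and limma none. At an unadjusted p under 0.05, 2 of 13 mitochondrial and 5 of 83 nuclear genes were lower and none of either set higher, against 5.77% of all genes lower and 12.1% in either direction. All 13 mitochondrial genes had negative log2 fold changes, as did 68 of 83 nuclear subunits, against 53.9% of all genes. The medians were -0.14 for the 13 mitochondrial genes, -0.072 for the nuclear subunits and -0.014 for all genes. mt-Nd6 (13552 to 14070) was at 1519, 1416, 1280 and 1437 CPM with vehicle and 1284, 1167, 1227 and 1234 CPM with beta-sitosterol. The groups met at mice 13 and 17, and the log2 fold change was -0.20 (SE 0.0832, edgeR adjusted p = 0.37). mt-Nd5, which overlaps mt-Nd6 on the opposite strand, had a value of -0.18 (SE 0.0826, edgeR adjusted p = 0.4).

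The clearest separation at 6 h was found in the nuclear set, where 9 of 83 subunits lay lower in every treated mouse than in every vehicle mouse, 4 each of complexes I and IV and 1 of complex III. Over all genes, 3.47% did so, and 5.5% lay higher in every treated mouse, which no member did. The 3 with the smallest p were Ndufa11, Cox6a1 and Cox7c. Ndufa11 (chromosome 17, 56717767 to 56722141), an accessory subunit of complex I that shares exonic bases with Vmac on the opposite strand, was at 50.2, 54.8, 52.3 and 51.4 CPM with vehicle and 45.6, 44.9, 44.5 and 46.9 CPM with beta-sitosterol (log2 fold change -0.20, SE 0.0765, edgeR adjusted p = 0.345). Cox6a1 (chromosome 5, 115345642 to 115348981), the common isoform of a regulatory subunit, was at 213, 212, 222 and 247 CPM with vehicle and 202, 207, 193 and 176 CPM with beta-sitosterol (log2 fold change -0.20, SE 0.0786, edgeR adjusted p = 0.356). Cox7c (chromosome 13, 86044816 to 86046904), a small subunit of cytochrome c oxidase, was at 58.2, 53.5, 51.5 and 58.5 CPM with vehicle and 46.3, 51.4, 49.1 and 48.8 CPM with beta-sitosterol (log2 fold change -0.18, SE 0.0769, edgeR adjusted p = 0.378). In the last of these the groups are only just apart, at mice 13 and 18, and 53.0% of its 50-base stretches recur in other transcripts. On the higher side Ndufa10, Ndufs1 and Sdha had log2 fold changes of 0.098, 0.091 and 0.063 (SE 0.0498, 0.0517 and 0.0525, edgeR adjusted p = 0.437, 0.486 and 0.653), with overlapping groups.

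The promoters of Ndufa11 and Cox6a1 are shown because both hold the same motif of a known regulator of these genes (RefSeq, GRCm38.p6, 250 bases before to 50 after the start, 5′ to 3′ on the gene's strand, chr17:56717512-56717811 plus strand and chr5:115348909-115349208 minus strand). Capitals in both mark the 10-base consensus of the nuclear respiratory factor NRF1, a palindrome. The promoter of Cox8a, a subunit of cytochrome c oxidase (chr19:7217567-7217866, minus strand), is shown beside them for the motif CCGGAAGT of GABPA, which capitals mark as its reverse complement ACTTCCGG.
Ndufa11 promoter: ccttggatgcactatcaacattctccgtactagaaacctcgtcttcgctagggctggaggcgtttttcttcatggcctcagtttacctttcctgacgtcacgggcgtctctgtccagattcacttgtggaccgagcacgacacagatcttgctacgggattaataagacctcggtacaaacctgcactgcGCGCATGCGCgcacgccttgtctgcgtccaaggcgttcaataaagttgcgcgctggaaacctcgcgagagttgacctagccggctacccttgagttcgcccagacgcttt
Cox6a1 promoter: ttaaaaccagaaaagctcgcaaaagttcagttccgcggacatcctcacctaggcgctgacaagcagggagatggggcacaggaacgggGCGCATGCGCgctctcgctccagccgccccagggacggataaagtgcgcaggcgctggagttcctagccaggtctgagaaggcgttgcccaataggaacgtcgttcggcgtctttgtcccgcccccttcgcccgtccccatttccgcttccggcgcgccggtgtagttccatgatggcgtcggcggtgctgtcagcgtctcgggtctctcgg
Cox8a promoter: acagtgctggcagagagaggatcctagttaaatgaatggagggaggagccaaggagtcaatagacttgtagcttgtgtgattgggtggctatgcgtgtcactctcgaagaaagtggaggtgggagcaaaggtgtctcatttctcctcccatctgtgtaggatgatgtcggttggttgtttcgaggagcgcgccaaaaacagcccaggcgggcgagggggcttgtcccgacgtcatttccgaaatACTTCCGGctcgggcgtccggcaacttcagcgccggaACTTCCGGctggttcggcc

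Of the 85 nuclear genes, 69 were matched to a RefSeq promoter, and the NRF1 consensus was found in 5 of them (7.25%), against 1.47% of 17492 genes with such a window. CCGGAAGT was found in 5 of 69 (7.25%) and in 5.69% of all genes. AAGATGGC, a motif of YY1, was found in 10 of 69 (14.5%) and in 3.57% of all. All motifs were searched on both strands, each counted on its own. Besides Ndufa11 and Cox6a1, the NRF1 consensus was held by Atp5g2, Atp5k and Uqcrc1. The window of Cox7c, named with Ndufa11 and Cox6a1 at 6 h, held none of these motifs. Whether a motif goes with the changes was not tested. A motif match is a description of these letters and not a site of binding. edgeR called none of Gabpa, Nrf1 and Yy1 in any of the 6 comparisons. Gabpa had a log2 fold change of 0.0015 (SE 0.0408) over both times. Nrf1 had a value of 0.21 at 1 h (SE 0.0686, edgeR adjusted p = 0.397) and 0.097 over both times (SE 0.0485, edgeR adjusted p = 0.267). At 6 h, the time at which Ndufa11 and Cox6a1 were named, its value was -0.017 (SE 0.0685, edgeR adjusted p = 0.94).

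Averaged over both times, the difference between beta-sitosterol and vehicle rests on 8 mice per arm. edgeR called 13 of all genes (0.0762%), of which none was a member, while 9 of 13 mitochondrial genes were lower at an unadjusted p under 0.05 and none was higher. Of 83 nuclear subunits, 15 were lower and 3 higher at that threshold, against 20.5% of all genes in either direction and 8.96% lower. The share of nuclear subunits is thus close to that of all genes, and 15 of 83 lower is above the 8.96%. The medians were -0.18 for the 13 mitochondrial genes, -0.071 for nuclear subunits and -0.013 for all genes. Nearest to the threshold were mt-Nd6 (log2 fold change -0.21, SE 0.0588, edgeR adjusted p = 0.0713), mt-Nd5 (-0.19, SE 0.0584, edgeR adjusted p = 0.0877), Cox6a1 (-0.18, SE 0.0556, edgeR adjusted p = 0.0912) and mt-Nd4 (-0.19, SE 0.0597, edgeR adjusted p = 0.0917). The remaining 5 of the 8 well counted mitochondrial genes lay between -0.19 and -0.16 with edgeR adjusted p from 0.107 to 0.166. Cox4i1 (-0.18, SE 0.0566, edgeR adjusted p = 0.1) and Uqcrq (-0.20, SE 0.0636, edgeR adjusted p = 0.102) followed among nuclear genes. On the higher side stood Ndufs1 (0.093, SE 0.0365, edgeR adjusted p = 0.16), Ndufa10 (0.087, SE 0.0352, edgeR adjusted p = 0.17) and Ndufa4l2 (0.24, SE 0.106, edgeR adjusted p = 0.218).

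The calls over both times differed between tools and libraries. DESeq2 called 6 mitochondrial and 3 nuclear members, all lower, in a comparison in which it called 7.66% of all genes, and limma called none. Without vehicle 1 h mouse 5, edgeR called 3 mitochondrial and 2 nuclear members and 1206 of all genes. The effects at 6 h and 1 h were not found to differ. In the test of that difference no member was called by edgeR, DESeq2 or limma, no member had an unadjusted p under 0.05, while 1.92% of all genes did, 0.962% with a negative difference. The medians of the difference were 0.060 for the 13 mitochondrial genes and 0.0091 for nuclear subunits.

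By complex, the nuclear log2 fold changes at 1 h had medians of -0.054 in complex I, -0.015 in complex II, -0.12 in complex III, -0.13 in complex IV and -0.042 in complex V. At 6 h they were -0.076, -0.029, -0.067, -0.11 and -0.044. Complex II, the succinate dehydrogenase without mitochondrial genes, lay nearest to 0 at both times and complex IV farthest, but in each complex except complex II at 1 h most members were negative. In complex IV 15 of 18 members were negative at 1 h and 16 of 18 at 6 h, against 51.3% and 53.9% of all genes. The complexes also differ in transcript length. Principal transcripts of complex II have 1142 to 3171 bases, while most of the tested complex IV members have under 1000. Differences between complexes, and the part of length in them, were not tested.

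**Figure D4:**
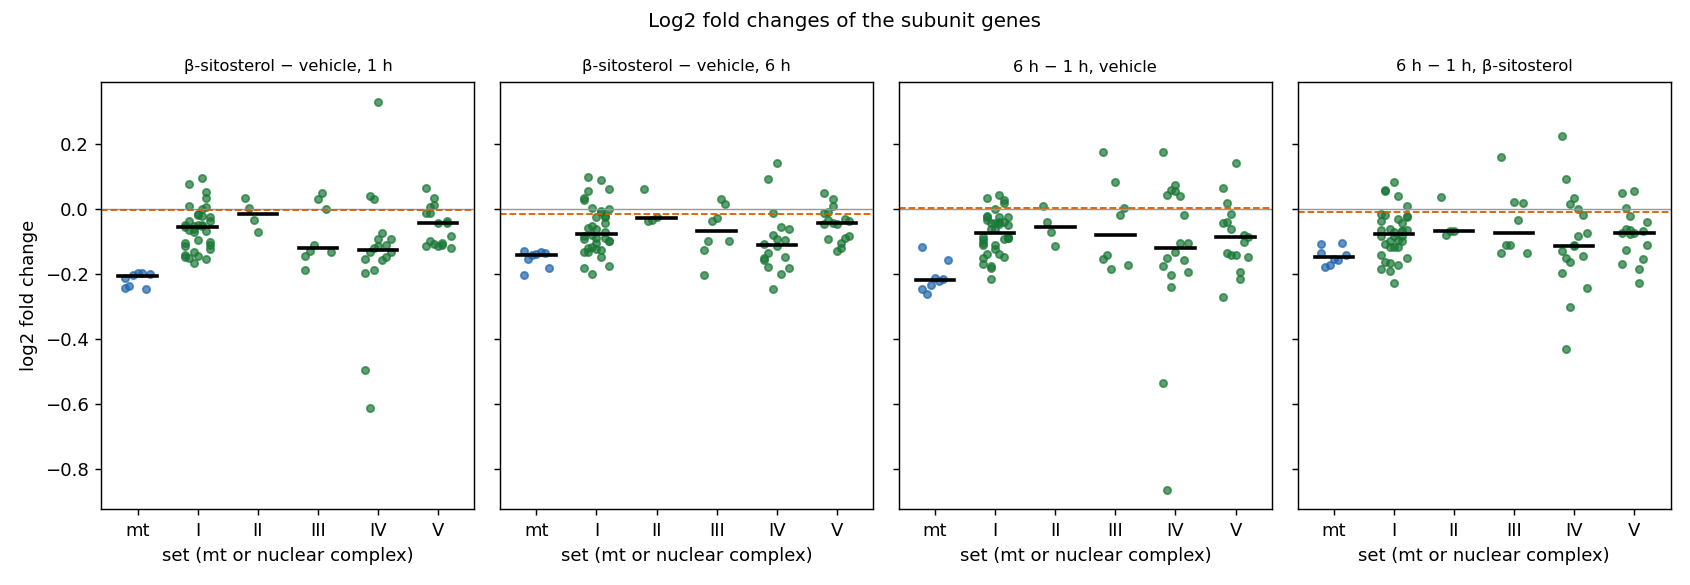
Log2 fold changes of the 8 well counted mitochondrial genes (mt, blue) and of 83 nuclear subunits by complex (green) in 4 comparisons, with black bars for the median of each column and a dashed line for the median of all 17055 genes. The blue points lie between -0.25 and -0.20 in the first panel, and the medians of the green columns lie between 0 and -0.13 in all panels.

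Values also differed with the time after injection. From 1 h to 6 h in vehicle mice the median log2 fold change was -0.21 for the 13 mitochondrial genes, -0.085 for nuclear subunits and 0.0045 for all genes. No member was called by edgeR, DESeq2 or limma, and the share called among all genes by edgeR was 0%. At an unadjusted p under 0.05, 6 mitochondrial and 7 nuclear genes were lower and none higher, against 5.58% of all genes lower. Negative values were found in 12 of 13 mitochondrial and 65 of 83 nuclear genes and in 48.7% of all genes, and 2 nuclear genes lay lower in every 6 h mouse, against 2.81% of all genes. This comparison and that of the treatment at 1 h share the vehicle 1 h mice. Without vehicle 1 h mouse 3 the medians were -0.12 for mitochondrial and -0.031 for nuclear genes. Summed astrocyte markers were at 6256 to 7179 CPM at 1 h and 5681 to 6370 CPM at 6 h in vehicle mice, and microglial markers at 410 to 472 and 367 to 410 CPM, and their part was not tested. mt-Co1 had a value of -0.26 (SE 0.0919, edgeR adjusted p = 0.363) and mt-Atp8 of -0.25 (SE 0.0903, edgeR adjusted p = 0.383). Among nuclear genes the values were -0.22 for Ndufa7, -0.19 for Cox7c and -0.27 for Atp5mpl, and on the higher side 0.14 for Atp5d, 0.18 for Uqcrq and 0.083 for Uqcrc1 (edgeR adjusted p from 0.347 to 0.56). In beta-sitosterol mice the medians from 1 h to 6 h were -0.15 for the 13 mitochondrial genes, -0.075 for nuclear and -0.008 for all genes, again with no member called by any of the 3 tools and 0% of all genes called by edgeR. Without beta-sitosterol 1 h mouse 9 the medians were -0.099 for mitochondrial and 0.00058 for nuclear genes. At an unadjusted p under 0.05, 2 mitochondrial and 7 nuclear genes were lower and 1 nuclear gene, Cox8a, was higher, against 3.97% of all genes lower and 6.97% in either direction. In all, 4 of 83 nuclear genes, Cox7c (-0.24), Ndufb4 (-0.23), Atp5e (-0.23) and Ndufa11 (-0.19), and 2 of 13 mitochondrial genes, mt-Atp6 (-0.29) and mt-Co1 (-0.18), lay lower in every 6 h mouse than in every 1 h mouse, a pattern met by 2.67% of all genes, while 2.61% of all genes and no member lay higher in every 6 h mouse. Cox8a, Uqcrq and Ndufa12 had values of 0.22, 0.16 and 0.082 with overlapping groups.

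The members of a set were often high or low in the same mouse. In vehicle 1 h mice, mouse 3 had the highest level of the group for 8 of 8 well counted mitochondrial genes and 74 of 83 nuclear subunits, against 29.3% of all genes. Mouse 9 was highest of its group for 8 of 8 and 77 of 83, against 34.9% of all genes. Both sets were thus high in the same animals in the 1 h groups. In vehicle 6 h mice, mouse 13 was lowest for 8 of 8 mitochondrial genes and 55 of 83 nuclear subunits, against 23.5% of all genes, and mouse 11 was highest for 8 of 8 and 37 of 83, against 27.8% of all genes. In the beta-sitosterol 6 h group the sets differed in mouse 18, which was lowest for 8 of 8 mitochondrial genes but lowest for 2 and highest for 33 of 83 nuclear subunits, against 19.2% and 21.8% of all genes. The spread within groups, as the mean coefficient of variation, had a median of 8.66% over the 8 mitochondrial genes and 7.42% over 76 nuclear subunits above 20 CPM, against 5.71% over 7916 genes above 20 CPM.

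Transcript length moved with these differences. The principal transcripts of the nuclear subunits tested had a median length of 809 bases against 2867 for all genes tested, and 78 of 83 were shorter than the latter. Each library has a length trend, the slope of log2 CPM relative to the gene's mean over the log2 length of its longest transcript. The covariate and the length and GC correction below use that length too, while the split at 1000 bases uses the principal transcript. For some genes these differ widely, as in Atp5l with 6310 against 544 bases. A negative slope means that short transcripts are relatively high. Mice 3 and 9 had the most negative slopes of the 16 libraries, -0.057 and -0.036, and the highest nuclear levels. In the beta-sitosterol 6 h group all 4 slopes were positive, 0.014 to 0.034, and in vehicle 6 h mice they ranged from -0.025 to 0.014. The 52 nuclear subunits with transcripts under 1000 bases had a median log2 fold change of -0.11 at 1 h and -0.097 at 6 h, and the 31 longer ones -0.023 and -0.020. For all 1378 genes tested under 1000 bases the medians were -0.071 and -0.084, and for the 15597 longer ones 0.0011 and -0.0087. With the length trend as a covariate, the nuclear medians were 0.0072 at 1 h, 0.049 at 6 h and 0.031 over both times, while those of the 13 mitochondrial genes were -0.12, -0.023 and -0.082. With a correction of each library for length and GC content, they were -0.026, 0.0084 and -0.0070 for nuclear and -0.15, -0.083 and -0.12 for mitochondrial genes. The slopes differ between groups, so the treatment and the length trend cannot be fully told apart.

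**Figure D5:**
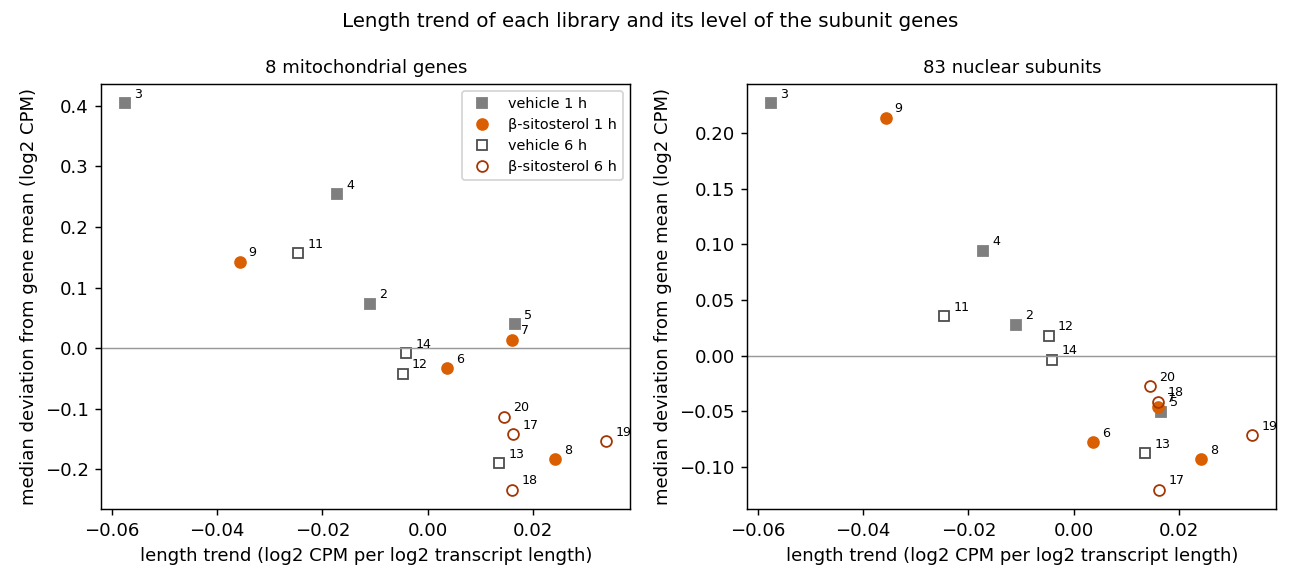
Length trend of each library (x, log2 CPM per log2 transcript length) and the median deviation of the 8 mitochondrial genes and of 83 nuclear subunits from their mean over libraries (y, log2 CPM), 1 point per mouse with its number. Mice 3 and 9, with slopes of -0.057 and -0.036, have the highest nuclear values, and the 4 beta-sitosterol 6 h mice, with positive slopes, lie below 0 in both panels.

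Single mice carried much of the medians at 1 h. Without vehicle mouse 3 the nuclear median at 1 h was -0.020 and the mitochondrial -0.14. Without beta-sitosterol mouse 9 they were -0.16 and -0.25. Without both of these mice they were -0.11 and -0.18. At 6 h the mitochondrial median was -0.078 without vehicle mouse 11. The direction of the mitochondrial median was negative in each of these fits.

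Markers of cell types differed between the same groups. At 1 h all 8 astrocyte markers were lower at an unadjusted p under 0.05 by edgeR, against 4.44% of all genes (median log2 fold change -0.19). Their summed levels were 6256 to 7179 CPM in vehicle mice and 5716 to 6165 CPM in treated mice. Of all genes, 51.3% had negative values at 1 h and 53.9% at 6 h. All 9 microglial markers had negative values (median -0.14, 410 to 472 against 380 to 425 CPM), and 8 of 9 neuronal markers had positive values (median 0.13, 6694 to 7864 against 7571 to 8029 CPM). None of these markers was called, and no marker of these lists was at 0. At 6 h the medians were -0.084 for astrocytes, with 5681 to 6370 and 5259 to 5948 CPM, -0.13 for microglia, with 367 to 410 and 330 to 380 CPM, and 0.11 for neurons, with 7192 to 7995 and 7901 to 8482 CPM. Endothelial markers were negative for 7 of 8 genes at 1 h (median -0.14), with 257 to 263 CPM in vehicle and 221 to 247 CPM in treated mice, which did not overlap. Oligodendrocyte markers were negative for 10 of 10 genes at 6 h (median -0.27), with 5936 to 7849 and 5112 to 6473 CPM. At 1 h their median was 0.0056. Their part in the values of the subunits was not tested.

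The muscle isoform Cox8b is given beside the markers of the choroid plexus, the epithelium near the hippocampus that secretes cerebrospinal fluid. Cox8b was at 1.33, 1.36, 1.04 and 0.184 CPM in vehicle 1 h mice 2 to 5 and 0.688, 0.701, 0.51 and 0.203 CPM in vehicle 6 h mice 11 to 14. Its lowest vehicle values belong to mice 5 and 14, whose Ttr, the transthyretin transcript of that epithelium, was at 45.8 and 46.8 CPM against 1034 CPM or more in the other 1 h mice and 1892 CPM or more in the other vehicle 6 h mice. In beta-sitosterol 1 h mice 6 to 9 Cox8b was at 0.455, 0.955, 0.53 and 0.616 CPM. Their Ttr was at 1357, 2165, 2029 and 1034 CPM, so that mouse 9 had more Cox8b but less Ttr than mice 6 and 8. In beta-sitosterol 6 h mice 17 to 20 Cox8b was at 0.145, 0.267, 0.422 and 1.07 CPM. In this last group Ttr was at 58.7, 685.8, 67.1 and 3801 CPM, so that mouse 19 had more Cox8b but less Ttr than mouse 18. Whether Cox8b follows the markers of the choroid plexus was not tested. Over the 16 choroid plexus markers, none at 0, the summed level ranged from 346 to 10186 CPM in vehicle 1 h, 1908 to 4047 in beta-sitosterol 1 h, 357 to 5606 in vehicle 6 h and 387 to 6862 in beta-sitosterol 6 h mice. All 16 had negative log2 fold changes with beta-sitosterol at both times, against 51.3% and 53.9% of all genes. Their medians were -0.68 and -0.61, and none was called. Cox8b rests on 4 to 38 reads per library and its log2 fold changes of -0.61 (SE 0.522) at 1 h and -0.18 (SE 0.594) at 6 h did not pass.

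Genes that make, process or use the subunit transcripts were examined as lists, of which no gene was called in any of the 6 comparisons by edgeR. Over both times the median log2 fold change was 0.014 for 16 genes of mitochondrial transcription and replication (8 negative), 0.018 for 20 genes of mitochondrial RNA processing and stability (8 negative) and 0.030 for 17 regulators of nuclear subunit genes (5 negative). It was -0.011 for 44 assembly factors (24 negative), -0.056 for 9 genes of cytochromes c and electron entry (6 negative), 0.044 for 16 genes of the tricarboxylic acid cycle (3 negative), 0.0071 for 10 mitochondrial carriers (5 negative) and -0.19 for both mitochondrial ribosomal RNAs. At an unadjusted p under 0.05 the counts over both times were 1 of 16, 4 of 20, 4 of 17, 7 of 44, 1 of 9, 5 of 16, 3 of 10 and 2 of 2 in that order, against 20.5% of all genes. The 5 of the tricarboxylic acid cycle were all higher, and among all 17055 genes 1964 were higher at that threshold. Negative values over both times were found in 53.9% of all genes.

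Lrpprc, which binds mitochondrial mRNAs with its partner Slirp and protects them from decay, lay just above the threshold by edgeR over both times. It was at 77.8, 73.3, 72.5 and 75.7 CPM in vehicle 1 h mice and 83.4, 85.4, 89.5 and 80.6 CPM in beta-sitosterol 1 h mice, with every treated mouse higher. At 6 h it was at 77.8, 85.4, 86.3 and 79.1 CPM with vehicle and 87.2, 88.8, 88.8 and 93.4 CPM with beta-sitosterol, again with every treated mouse higher. Of all genes, 3.04% at 1 h and 5.5% at 6 h lay higher in every treated mouse. The log2 fold change of Lrpprc was 0.18 at 1 h (SE 0.0475, edgeR adjusted p = 0.395), 0.12 at 6 h (SE 0.0473, edgeR adjusted p = 0.339) and 0.15 over both times (SE 0.0335, edgeR adjusted p = 0.0526). Over both times it passed the adjusted threshold of 0.05 with DESeq2 (log2 fold change 0.15), limma (0.16), RLE scaling (0.15), the 5 CPM filter (0.14), the choroid plexus covariate (0.16) and without mouse 5, mouse 6 or mouse 9 (0.15, 0.16 and 0.16), and at 1 h with DESeq2 (0.18). Over both times DESeq2 called 7.66% of all genes, against 0.0762% by edgeR, and several of the other settings also called more genes. With the length trend as a covariate no gene was called. Slirp had a value opposite in sign to that of Lrpprc over both times, -0.13 (SE 0.0554, edgeR adjusted p = 0.189).
The mitochondrial RNA polymerase Polrmt (-0.095, SE 0.0577), the packaging and transcription factor Tfam (0.063, SE 0.0355) and the poly(A) polymerase Mtpap (0.083, SE 0.0384) had edgeR adjusted p from 0.232 to 0.369 over both times. The coactivator Ppargc1a had a value of 0.00077 (SE 0.0331) and the electron carriers Cycs and Cyc1, the latter a subunit of complex III that the name rule does not hold, 0.011 (SE 0.0594) and -0.056 (SE 0.0427).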

How the data were processed

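RNA of 16 hippocampi was read with the TruSeq mRNA kit, per the labels' protocols. One deposited table holds raw counts, the reads that the authors assigned to each Ensembl gene. The other gives the authors' normalized signal, which only one alternative uses. The submitters' processing notes name CASAVA 1.8.2, cutadapt, TopHat2 2.0.10, HTSeq 0.6.1p1, DESeq2 1.6.3 and GRCm38, without assigning steps. The strand setting, the annotation release and the treatment of reads with several matches could not be read from the labels or headers. Of the 85 nuclear members, 27 share exonic bases with an opposite-strand gene and 5 with a same-strand gene, so their reads may be mixed.

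Libraries held 24815581 to 31266644 counted reads. filterByExpr (minimum count 10, minimum total 15) left 17055 genes with 99.9% of the reads. The common biological coefficient of variation was 0.0988, which is the relative spread between mice. Tests used R 4.3.3 and edgeR 4.0.16 (TMM, robust quasi-likelihood fit to all 16 libraries, 12 residual degrees of freedom) in 6 comparisons, with Benjamini-Hochberg adjustment over all genes and a threshold of 0.05. SE was taken as the size of the log2 fold change divided by the root of its F statistic. The procedure was tested on simulated data. Lengths, overlaps, 50-base stretches and coding ends come from GENCODE M21 (GRCm38), and 46005 of the 46603 gene IDs were matched to a symbol.

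The alternatives were RLE scaling, library sizes without mitochondrial genes, no filter, a filter at 5 CPM, DESeq2 1.42.0, limma 3.58.1 on log2 of the deposited signal plus 1, fits restricted to the compared groups, a choroid plexus marker score or the length trend as covariate, leaving out 4 libraries with Ttr under 100 CPM, a length and GC correction (splines with 5 degrees of freedom, limma), and leaving out each mouse. Leaving out mice 3 and 9 together and the mitochondrial set without the 5 genes with nuclear copies were chosen after seeing the data. The text names all mitochondrial genes, the highest and lowest nuclear member per complex, isoform pairs, the called members or otherwise the 3 nuclear members with the smallest p per direction, and 10 related genes. Atp5e and the pseudogenes were named after their values were seen. The mitochondrial ribosomal RNAs and Ttr are given beside the results they touch. Members and lists were chosen with earlier results of these data known.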

Additional observations from a re-analysis of the deposited data

Results flagged for a closer look

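In 9 of 156 sets of 4 values examined, a single mouse stood apart by Dixon's criterion, where chance alone gives about 5%. Beta-sitosterol 1 h mouse 9 accounts for 7 of them. Its nuclear subunit share was 1.022% of the reads against 0.856% to 0.871% in the other 3 mice. Its Cox6b1 was at 173 CPM (others 126 to 132), its Ndufa4 at 206 CPM (others 155.5 to 160.2), its Cox7a2l at 137 CPM (others 105.6 to 110.4) and its Atp5mpl at 62 CPM (others 43.4 to 46.1). Its Ndufa10 was at 130.3 CPM (others 115.1 to 116.4) and its Atp5d at 117 CPM (others 101.3 to 102.5). In beta-sitosterol 6 h mouse 17, Cox7a1 was low at 0.617 CPM (others 1.04 to 1.11). In vehicle 1 h mouse 2, Uqcrq was low at 43.4 CPM (others 59.8 to 60.6).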

How the results depend on the processing

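At 1 h, at 6 h and in both time comparisons no member was called under any of the 28 alternatives that could be fitted. Over both times, where edgeR called 0 members, the 5 CPM filter gave 1 mitochondrial member, DESeq2 6 mitochondrial and 3 nuclear members, and the choroid plexus score as a covariate 2 nuclear members. Leaving out 1 mouse gave 0 to 3 mitochondrial and 0 to 2 nuclear members, the highest without vehicle 1 h mouse 5. The same settings moved the calls among all genes from 13 to 497 (5 CPM filter), 1307 (DESeq2), 456 (choroid plexus score) and 1206 (without mouse 5), while the length trend as a covariate left 0 and leaving out mice 3 and 9 left 5. With the length trend as a covariate the nuclear median was positive at 6 h (0.049) and over both times (0.031), and at 6 h mt-Nd1 (0.0099), mt-Nd2 (0.0059) and mt-Atp8 (0.0067) turned positive. As a share of reads outside the mitochondrial genome the nuclear set held 0.957% in vehicle and 0.915% in beta-sitosterol 6 h mice. The cause of these changes was not tested.

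Values near 0 over both times changed sign. Ppargc1a was at -0.00065 with library sizes without mitochondrial genes, -1.5e-05 without a filter, -0.011 with the 5 CPM filter, -0.015 without the mice low in Ttr, -0.012 with the length and GC correction, and -0.019 to 0.014 without single mice. Gabpa was at -0.010 with the 5 CPM filter, -0.00014 with the choroid plexus covariate, -0.040 under the length trend, -0.0081 with the length and GC correction, and -0.019 to 0.021 without single mice. Cycs was at -0.0020 with the 5 CPM filter, -0.0039 without the mice low in Ttr, -0.028 without mice 3 and 9, and -0.044 to 0.033 without single mice. Cyc1 was at 0.012 with the length trend and 0.034 with the length and GC correction. Of 2408 values for single genes under the alternatives, 2346 kept their direction and side of the threshold. No paired analysis was possible because the mouse numbers are unique to each mouse and no 2 groups share them. Low counts limit Cox8b, Cox7a1, Cox4i2, Ndufa4l2, mt-Co2 and mt-Co3. Lrpprc was called over both times under 8 alternatives, several of which also raised the calls among all genes.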
